A study of Mus musculus and Rattus norvegicus with 4 samples.

Results

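The 10 genes described here encode the subunits of AMP-activated protein kinase (AMPK), the PGC-1 coactivators and the glucose transporter GLUT4. They were taken as a named group of energy regulators of muscle and make up 10 of the 21887 protein-coding genes on placed mouse chromosomes. The group holds the catalytic α subunit genes Prkaa1 and Prkaa2, the scaffolding β subunit genes Prkab1 and Prkab2, and the nucleotide-binding γ subunit genes Prkag1, Prkag2 and Prkag3. It also holds the coactivator genes Ppargc1a (PGC-1α) and Ppargc1b (PGC-1β), and Slc2a4, which encodes GLUT4. All 10 were found in the gene table under these symbols.

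The measurement was occupancy of MEF2A, a transcription factor of muscle, in C2C12 cells. C2C12 is a mouse myoblast line that fuses into myotubes when serum is withdrawn, and the cells had spent 48 h in medium with 2% horse serum. The assay was ChIP-exo, in which an exonuclease trims immunoprecipitated DNA back to the edge of the bound protein. Antibodies to MEF2A and normal rabbit IgG were each used once on C2C12 cells and once on primary cardiomyocytes of rats aged 1 to 3 days, which gave 4 libraries with 1 in each group. Members were read against the C2C12 MEF2A list of 2797 peaks. The 1868 rat peaks were not assigned to genes, since no annotation of the rat build rn5 was used. With 1 library there is no replicate error and no test, and read depth is unknown because the list gives a position and a score per peak. A peak that is missing from the list was not detectable at the threshold the authors used, which is not the same as an unbound site. No expression was measured in these files, so the label of the cells was not checked against marker genes, and a nearby peak is no measure of regulation.

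AMPK is a heterotrimer that is activated when AMP and ADP accumulate, as they do in contracting muscle, and it switches cells from ATP-consuming synthesis to fuel oxidation. PGC-1α and PGC-1β bind nuclear receptors and other transcription factors and drive mitochondrial genes, and in muscle PGC-1α acts together with MEF2 factors, which also bind upstream of its own gene in mouse. GLUT4 carries glucose into muscle and fat cells after insulin or contraction, and its promoter in rodents and humans is known for an MEF2 element.

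Start sites were available for 8 of the 10 genes, all but Ppargc1b and Slc2a4. They came as promoter windows of 300 bases, from 250 before to 50 after a start (RefSeq, GRCm38.p6, the assembly behind mm10). The windows of 3 genes are printed from 5′ to 3′ on the coding strand. They are the window of Prkag3, which a MEF2A peak reaches, that of its paralog Prkag1, which has no peak nearby, and that of Ppargc1a, whose peaks all lie far upstream of it. In the Prkag3 window (chr1:74748906-74749205, minus strand) the first run of capitals is the 14 bases shared with the peak and the second is the E-box CAGCTG, a type of site bound by MyoD. In the Prkag1 window (chr15:98831459-98831758, minus strand) and the Ppargc1a window (chr5:51567676-51567975, minus strand) the capitals mark the core of the cAMP response element, TGACGT or its reverse complement.
Prkag3: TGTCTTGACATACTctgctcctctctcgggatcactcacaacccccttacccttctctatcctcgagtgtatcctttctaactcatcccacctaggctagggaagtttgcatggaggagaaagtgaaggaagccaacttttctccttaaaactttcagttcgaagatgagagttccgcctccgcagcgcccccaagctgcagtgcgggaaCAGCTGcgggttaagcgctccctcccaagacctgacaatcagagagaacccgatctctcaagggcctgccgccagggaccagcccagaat
Prkag1: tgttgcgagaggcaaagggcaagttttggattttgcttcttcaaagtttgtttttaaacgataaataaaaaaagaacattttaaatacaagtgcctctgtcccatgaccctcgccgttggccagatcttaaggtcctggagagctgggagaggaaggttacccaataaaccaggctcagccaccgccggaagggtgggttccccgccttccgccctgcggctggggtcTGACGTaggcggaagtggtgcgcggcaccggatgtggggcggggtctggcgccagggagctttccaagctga
Ppargc1a: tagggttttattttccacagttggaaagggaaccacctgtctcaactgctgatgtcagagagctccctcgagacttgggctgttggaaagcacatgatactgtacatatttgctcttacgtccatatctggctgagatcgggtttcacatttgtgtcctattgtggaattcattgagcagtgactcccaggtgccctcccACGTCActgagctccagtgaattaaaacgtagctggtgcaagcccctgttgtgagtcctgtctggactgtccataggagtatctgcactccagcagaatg

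When every peak was given to its closest protein-coding span, up to 100 kb away, 2 of the 10 genes had a peak, Prkag3 and Ppargc1a. Over all protein-coding genes the share was 7.73%, and with so few members the 20% among them is a description only. Both genes also had a peak scoring 100 or more, as did 3.47% of all genes, and both had one scoring 200 or more, as did 1.53%. Both had a peak that overlapped the gene, as did 4.57% of all genes. When every gene within 100 kb of a peak was counted, whether or not another gene was nearer, the members were still these 2, while the share of all genes grew to 22%. Only 1 of the 7 AMPK subunit genes was among them, and neither α subunit gene nor β subunit gene had a peak. The γ subunit gene with a peak was 1 of 3, the PGC-1 gene 1 of 2, and Slc2a4 had none.

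**Figure D1:**
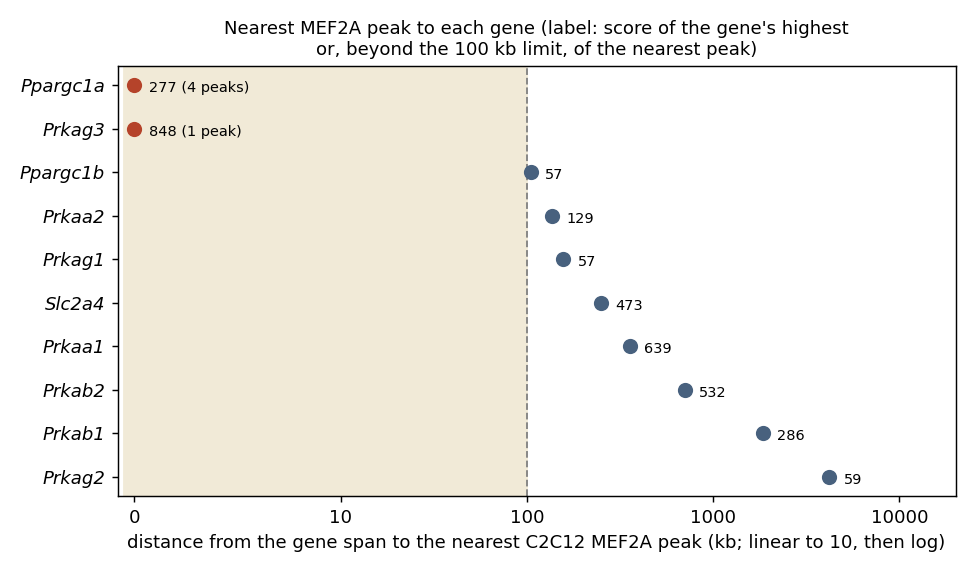
Distance in kb from each gene's span to the nearest C2C12 MEF2A peak, on an axis that is linear to 10 kb and logarithmic beyond, with the 100 kb limit as a dashed line. Ppargc1a (4 peaks) and Prkag3 (1 peak) stand at 0, the other 8 genes lie beyond the limit, and Ppargc1b at 104.6 kb is the nearest of them.

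Prkag3 encodes γ3, the AMPK regulatory subunit that is largely confined to glycolytic skeletal muscle. Its single peak, at chr1:74749192-74749771 (mm10), scored 848.2 on the authors' scale and ranked 43 among the 2797 C2C12 peaks. The median score of the list was 77.0 and the upper quartile 138.8, so this peak stood far into the upper tail, with 98.5% of peaks scoring lower. It was also broad, at 580 bp against a median of 144 bp, and 98.8% of peaks were narrower.

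The Prkag3 peak lay at the 5′ end of the gene. The gene is on the minus strand, its span runs from 74738922 to 74749471 on chromosome 1, and the peak covered the upper end of that span with 280 bp inside and 300 bp outside. The centre of the peak was 526 bp upstream of the listed start at 74748955 and 10 bp (0.01 kb) beyond the span. The peak therefore covered positions 237 to 816 bp upstream of that start, and only its nearest 14 bp entered the promoter window printed above. The span extends 516 bp upstream of the listed start, so the annotation holds a transcript that begins farther out, near the centre of the peak. Exons and introns were not given in the gene table and were not used here.

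Start-proximal peaks of this strength were rare in the list. Of the 17492 protein-coding genes with a listed start, 126 (0.72%) had a peak within 1 kb of it, and these genes shared 127 peaks with a median score of 72.7 and a median width of 141 bp. The Prkag3 peak ranked 3 by score among those 127 peaks. The next protein-coding gene was Wnt6, a Wnt ligand gene, at 4.57 kb on the other side of the peak, and the span of Cyp27a1, a sterol hydroxylase gene, ended 11.3 kb away. Nearest-gene assignment thus favoured Prkag3 over Wnt6, which does not settle which gene the site acts on.

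Ppargc1a encodes PGC-1α, the exercise-inducible coactivator of mitochondrial genes, and was assigned 4 peaks, all inside its annotated span of 661.6 kb (chromosome 5, 51454249 to 52115853). In order of position, the peak at chr5:51866083-51866247 scored 91.6, and the peak at chr5:51868350-51868462 scored 55.5. The peak at chr5:51882695-51883069 scored 276.8, and the peak at chr5:52035468-52035720 scored 158.4. The third ranked 285 and the fourth 592 of 2797, while the first ranked 1131 and the second, close to the lowest deposited score of 50.1, ranked 2352.

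Width followed the same order as score at these sites. The third peak was 375 bp wide, the fourth 253 bp, the first 165 bp and the second 113 bp. The first 3 peaks lay within 17.0 kb of each other, separated by gaps of 2.10 and 14.2 kb, and the fourth stood apart by 152.4 kb. No pair was under 1 kb apart, so merging neighbouring peaks left all 4 as separate regions.

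All Ppargc1a peaks were upstream of the listed start. Ppargc1a lies on the minus strand, and its listed start at 51567725 is 548.1 kb short of the upper end of the span. The peaks were centred 298.4, 300.7, 315.2 and 467.9 kb upstream of that start, and none was downstream of it. They counted as inside the gene because the RefSeq span reaches that far upstream, through transcripts that begin beyond the listed start. Measured from the upper end of the span, which is its 5′ end, the centres lay 249.7, 247.4, 233.0 and 80.3 kb inside it. The third and the fourth peak were nearer to the listed start of Dhx15, an RNA helicase gene, than to that of Ppargc1a, at 307.7 and 155.0 kb. Both were nearer still to the 5′ end of the Ppargc1a span. When peaks were assigned to the nearest listed start within 100 kb, an alternative chosen after the values were seen, Ppargc1a had no peak and Prkag3 kept its peak. The share of genes with a peak under that assignment was 7.64% of 17492.

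**Figure D2:**
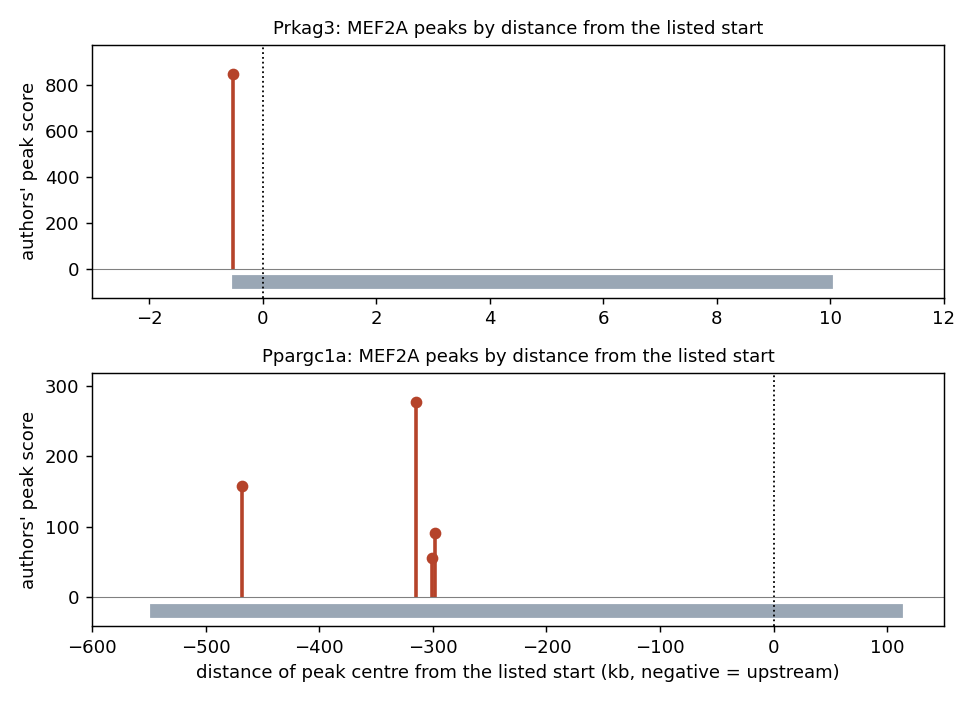
Authors' peak score of each MEF2A peak against the distance of its centre from the gene's listed start in kb, negative upstream, for Prkag3 (top) and Ppargc1a (bottom). Grey bars are the annotated spans and dotted lines the listed starts. The Prkag3 peak sits 0.526 kb upstream of the start, while the 4 Ppargc1a peaks sit 298.4 to 467.9 kb upstream.

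Set against each other, the Prkag3 peak ranked above all Ppargc1a peaks by score, while Ppargc1a had more peaks. A count of 4 or more peaks was held by 40 genes, or 0.183% of all protein-coding genes. Of these 40 genes, 18 belonged to the decile of genes with the longest territories. A territory is the stretch of genome from which a peak would be assigned to the gene. That of Ppargc1a was 778.8 kb, at percentile 99.4 of all genes, and 26.7% of the genes in this longest decile had a peak. The territory of Prkag3 was 13.5 kb, in the second decile from the bottom, where 1.46% of genes had a peak.

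Territory length differed widely among the genes with no peak too. Prkag2, a γ subunit gene of heart and other tissues, had a territory of 291.3 kb in the longest decile and no peak. Slc2a4 (14.6 kb), Prkab1 (20.4 kb), Prkag1 (21.2 kb) and Prkab2 (25.1 kb) sat in deciles 2 to 4, where 1.46%, 2.1% and 2.56% of genes had a peak. Prkaa1 had 52.2 kb, Prkaa2 110.4 kb and Ppargc1b 155.6 kb, in deciles 6, 8 and 9, where 5.48%, 11.7% and 14.2% of genes had a peak.

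**Figure D3:**
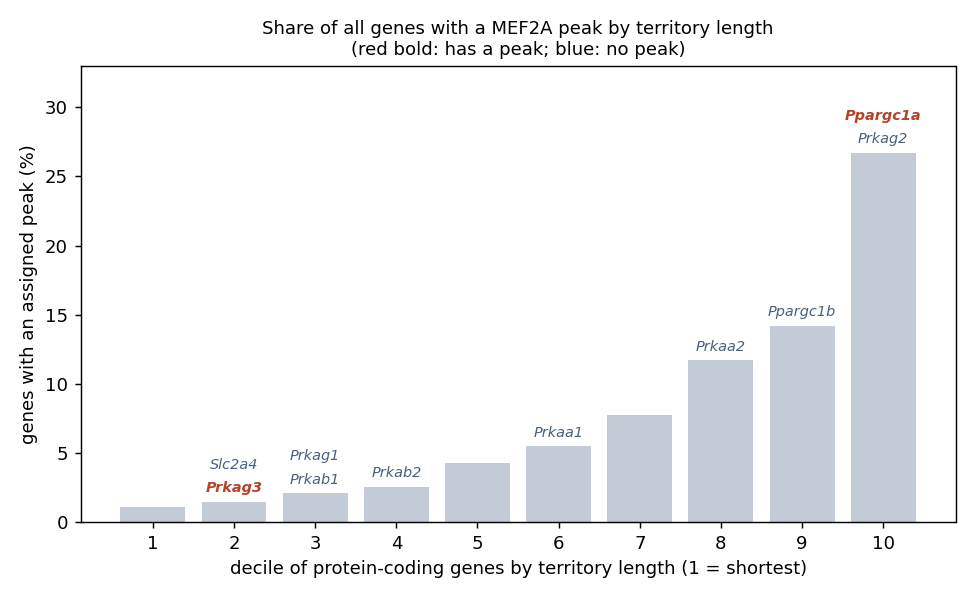
Bars give the percentage of all protein-coding genes with an assigned C2C12 MEF2A peak in each decile of territory length, and gene names mark the decile to which each of the 10 genes belongs, red for a peak and blue for none. The share is 1.1% in the shortest decile and 26.7% in the longest, where Ppargc1a and Prkag2 stand, while Prkag3 stands in decile 2 at 1.46%.

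The 8 genes without an assigned peak were between 104.6 and 4191 kb from the nearest one, with a median of 302.8 kb. Over all 21887 genes, those with an assigned peak included, the median distance was 354.0 kb. The like median over all 10 members was 203.2 kb. Of the 8 genes without an assigned peak, 4 were nearer to a peak than 354.0 kb and 4 were farther. Among the AMPK catalytic subunits, Prkaa2, which encodes α2, the main catalytic subunit of muscle, had its nearest peak (score 128.6) at 135.4 kb, inside Fyb2, the gene that adjoins it. Prkaa1, encoding the widely expressed α1, had its nearest peak at 355.5 kb. That peak was strong, with a score of 638.5 and rank 72, but it lay 293.2 kb from its own nearest gene, Ptger4, a prostaglandin receptor gene, and was assigned to none.

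The β and the remaining γ subunit genes were farther away in most cases. Prkab2, encoding the β2 subunit of muscle, had its nearest peak (score 531.9) at 700.6 kb, near the zinc finger gene Zfp697. Prkab1, encoding β1, had its nearest peak at 1840 kb, and that peak lay inside Acacb, an AMPK substrate gene described below. Prkag1, the widely expressed γ1 gene, had a weak peak (score 57.4) at 156.3 kb that was assigned to the tubulin gene Tuba1a. Prkag2 was the most isolated, with its nearest peak (score 59.4) at 4191 kb, inside Magi2, and 98.2% of all genes had a nearer peak. Prkag2 and Prkab1 were the 2 members with no peak within 1 Mb.

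Ppargc1b, encoding PGC-1β, missed the 100 kb limit narrowly. Its nearest peak, at chr18:61505350-61505465, lay 104.6 kb away, scored 56.8 and fell inside the neighbouring gene Arhgef37, to which it was assigned. The absence of an assigned peak at Ppargc1b was thus not set by the limit alone, and removing the limit did not add it. Slc2a4, the GLUT4 gene, had its nearest peak at 250.1 kb. It scored 472.9 and was assigned to Slc16a11, a monocarboxylate transporter family gene, and 12 protein-coding genes lay between it and Slc2a4. No peak in the list fell at the Slc2a4 promoter.

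Promoter windows were searched on both strands for the MEF2 core, CTA and TAG separated by any 4 bases, which reads the same on both strands, and for the stricter MEF2 consensus, whose matches ending in G are also matches to the core. None of the 10 windows of the 8 genes held the core or the consensus. Slc2a4 and Ppargc1b had no window, so the GLUT4 promoter was not searched. Over all 21263 windows of protein-coding genes, 3.47% held the core and 1.66% the consensus. The E-box CAGCTG, the cAMP response element core TGACGT and the MCAT element CATTCC, searched after the windows had been seen, were held by 15.6%, 8.49% and 13.6% of all windows. Among the members, the E-box was found once, in Prkag3 at 40 bases before the start. The cAMP response element core was found in Ppargc1a and Prkag1, at 50 and 22 bases before the start, and MCAT in 1 of the 3 windows of Prkag2. The peaks of Ppargc1a, and all but 14 bp of the Prkag3 peak, lie outside these windows, so the sequence under the peaks was not analysed here.

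In the order of the 1691 genes with an assigned peak by their highest score, Prkag3 was number 41 and Ppargc1a number 240. Next to Prkag3 were Stag1, a cohesin subunit gene (852.8), above it and Cdh18, a cadherin gene (842.2), below it, and both had their highest peak inside the gene. Next to Ppargc1a were Mfap3l (277.3), with its peak 96.7 kb away, and the ephrin receptor gene Epha1 (274.4), with its peak 10.7 kb away. These genes were chosen for a like highest score in 1 library, and nothing on shared function or control was measured.

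Other genes of the same pathways were taken from 4 lists of 71 genes in all. Of these, 12 (16.9%) had an assigned peak, against 7.73% of all protein-coding genes. A peak scoring 100 or more was held by 9 of the 71, against 3.47% of all. The lists were chosen with earlier results of these data known, so these shares are a description only. Territory length, along which the share of genes with a peak ran from 1.1% to 26.7%, was not matched. The highest scores of the 12 genes had a median of 200.1, against 88.7 over all genes with a peak. All 12 highest scores were below that of Prkag3, and those of Vegfa and Acacb were above that of Ppargc1a.

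Of 11 genes upstream of AMPK or interacting with it, 1 (9.09%) had a peak, against 7.73% of all protein-coding genes. It was Fnip1, encoding a partner of folliculin that binds AMPK, with a weak peak (score 61.2) inside the gene. The upstream kinase genes Stk11, encoding LKB1, and Camkk2 had none. Among genes for AMPK substrates, 4 of 15 (26.7%) had a peak. Acacb, encoding the acetyl-CoA carboxylase that restrains mitochondrial fatty acid uptake, held a peak of score 285.7 at 7.61 kb downstream of its listed start. That peak was only 57 bp wide, and 0.751% of all peaks were as narrow or narrower. Hdac5, a repressor of MEF2 that AMPK phosphorylates, held a peak of score 195.1 at 11.2 kb downstream of its start. Tbc1d1, which controls GLUT4 vesicle traffic in muscle, had a peak of score 117.5 at 17.0 kb beyond the end of its span. Rptor, encoding the mTORC1 scaffold raptor, held 3 weak peaks of 57.7, 51.2 and 50.6, the last of them centred 0.23 kb downstream of its listed start.

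Among partners and targets of PGC-1, 4 of 24 genes (16.7%) had a peak. Vegfa, an angiogenic factor gene induced by PGC-1α, had the highest, a pair scoring 320.5 and 114.8 at 71.7 and 71.5 kb beyond its 3′ end. Tfb1m, a mitochondrial ribosomal RNA methyltransferase gene, held a peak of score 205.1, and Sirt1, whose product deacetylates PGC-1α, one of 144.6. Ppara, a nuclear receptor of fatty acid oxidation, had a peak of score 53.2 at 51.8 kb. The partner genes Esrra and Nrf1 and the target genes Tfam and Perm1 had none.

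Among genes of glucose uptake and GLUT4 traffic, 3 of 21 (14.3%) had a peak. Irs1, encoding an adaptor of the insulin receptor, had peaks of 263.7 at 32.8 kb beyond its 3′ end and of 55.2 inside the gene. Insr, the insulin receptor gene itself, held a pair of 236.1 and 60.5. Lnpep, encoding the aminopeptidase of GLUT4 vesicles, had 3 narrow peaks side by side from 29.6 to 29.9 kb upstream, scoring 216.6, 143.7 and 102.9. The transporter genes Slc2a1 and Slc2a3, the hexokinase gene Hk2 and the kinase gene Akt2 had no peak. The close peaks at Vegfa, Insr and Lnpep were counted singly, without merging, in the counts that follow. Of the 19 pathway peaks, 11 overlapped the span of their gene and 8 lay 17.0 to 71.7 kb outside it. Start sites were listed for the genes of 17 of them, and 1, a weak Rptor peak, was centred within 1 kb of a listed start, as the strong Prkag3 peak was.

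**Figure D4:**
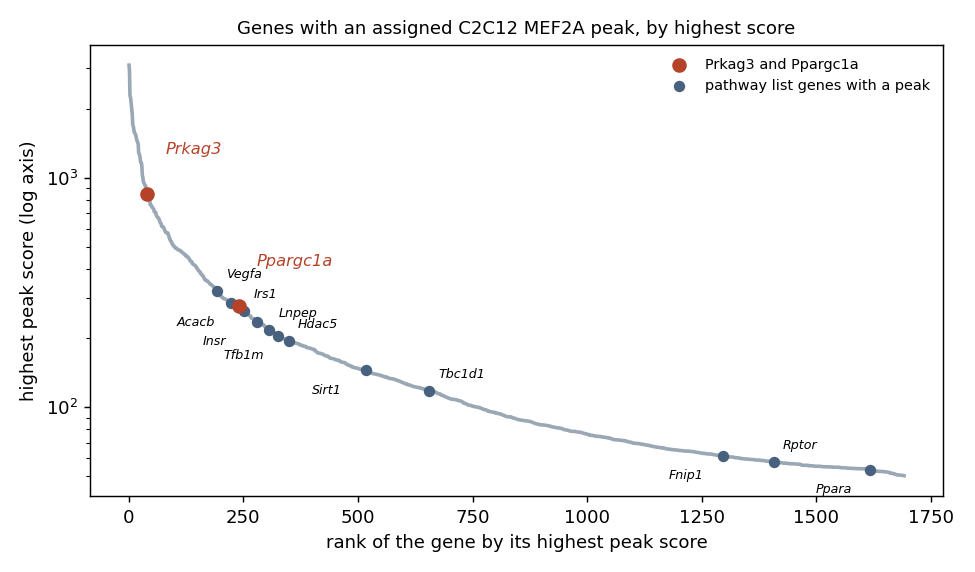
Highest peak score of each of the 1691 genes with an assigned C2C12 MEF2A peak, on a log axis, against the gene's rank by that score. The grey line is all genes, red points are Prkag3 (848.2) and Ppargc1a (276.8), and blue points are the 12 genes of the pathway lists with a peak, which run from 320.5 for Vegfa to 53.2 for Ppara.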

How the data were processed

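Nuclei were sonicated, MEF2A was immunoprecipitated and ChIP-exo fragments of 120 to 160 bp were selected on a gel, per the labels' protocols. Per the submitters' processing notes, the tools were MACS 1.4.2, BWA 0.5.9, CASAVA 1.7.0, SAMtools and Picard, the builds were mm10 (mouse) and rn5 (rat), and settings were not given. For each MEF2A library the authors deposited a peak list without a header, in which every peak has a score. This version of MACS derives its score from a p-value, but the file does not say so, and scores were used only to describe, rank and filter peaks within the list, not as a measure of how much protein was bound. No source used here states whether the IgG libraries entered the peak calling.

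Peak starts, counted from 0 in the list, are printed counting from 1. Spans came from the RefSeq table of GRCm38.p6, and start sites and strand from its promoter table, which is not complete. Distance was 0 where peak and span overlapped, and a peak in several spans counted for each. Upstream distances were taken from the peak's centre. No test was run, because there is 1 library per group. The members and lists were chosen with earlier results of these data known. The genes named are the members, the listed pathway genes with a peak, the genes nearest to the peaks described and the neighbours in the order of highest score; pathway genes named without a peak, and Cyp27a1, were chosen after their values were seen. Assignment was checked on planted peaks. Alternatives were score thresholds, distance limits, other ways of assignment and merging. Python 3.11.15, numpy 2.4.6, pandas 2.3.3 and matplotlib 3.10.9 were used.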

Additional observations from a re-analysis of the deposited data

How the results depend on the processing

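Prkag3 and Ppargc1a were the members with a peak under score thresholds of 100 and 200, distance limits of 10 and 50 kb, no limit, the nearest span end, spans of any gene type and counting every gene within 100 kb. With the nearest listed start, added after seeing the data, 1 member (Prkag3) with 1 peak remained, because the Ppargc1a peaks are far from its 1 listed start. The fourth of them lies 80.3 kb from the 5′ end of the span, which is not a listed start. Ppargc1b, Slc2a4 and the pathway gene Insr have no listed start, so they could not be given a peak under this setting. The 5 member peaks became 3 at a score of 100 or more, 2 at 200 or more and 2 with the nearest span end. The 12 pathway genes became 9 at a score of 100 or more and 8 within 10 kb. They became 11 with the nearest span end and 8 with the nearest listed start. In the same order, the 1691 genes with an assigned peak became 759, 1259, 1623 and 1336. Depth is unknown, and no second library shows whether the weak peaks recur. Peaks scoring just above 50, such as the second Ppargc1a peak, therefore weigh less than the Prkag3 peak. No paired analysis was possible because every group consists of 1 library only.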

Other observations

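The position of the Ppargc1a peaks, inside the span but far upstream of the listed start, was uncommon in the C2C12 list. Of 1020 pairs of a peak and a gene span that it overlaps, for genes with a listed start, 81 (7.94%) had the peak upstream of every listed start. In 12 of these the peak was more than 250 kb upstream, spread over 7 genes, and Ppargc1a accounted for 4 of the 12. The others were at Tenm3, Sox5, Pcdh15, Cdh12, Cdh18 and Zbtb20, and the strongest was a Tenm3 peak of score 820.8 at 674.1 kb. These genes were picked by position after the values were seen, and the promoter table is not complete. Without a distance limit, 2 further peaks came to Ppargc1a, on the 3′ side of its span, at 381.0 kb (score 62.8) and 463.2 kb (score 137.8).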
